A study of Homo sapiens with 20 samples.

Results

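The transcripts of sterol and fatty acid synthesis were examined in LNCaP, a human prostate adenocarcinoma cell line, after the histone methyltransferase EHMT1 was silenced or induced. The genes were chosen by symbol and comprise 32 of the 57773 genes in each of the 2 count tables, with 19 in the sterol arm, 9 in the fatty acid arm and 4 regulators. Parental LNCaP cells received 20 nmol/L of pooled siRNAs for 2 days, directed at EHMT1 (siEHMT1) or at no target (siNTC), in 2 samples each. In addition, 4 LNCaP lines, selected with puromycin after lentiviral transduction, carried a V5-tagged EHMT1 reading frame under a tetracycline promoter, either wild type (WT) or with lysine-to-arginine changes (K450R, K451R or the dual mutant K450RK451R). Each line received vehicle (Veh) or 0.25 µg/mL doxycycline (Dox) for 2 days, and all 4 kept their endogenous EHMT1. Both experiments used medium with fetal bovine serum, which for the stable lines was free of tetracycline. No line without the EHMT1 insert was analysed here, so an effect of Dox itself and an effect of the induced protein cannot be told apart in what these lines share.

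Cholesterol and fatty acids are both built from cytosolic acetyl-CoA. In the sterol arm, mevalonate is made and phosphorylated, joined into squalene and cyclized to lanosterol, which further enzymes convert to cholesterol. In the fatty acid arm, acetyl-CoA is carboxylated, extended by fatty acid synthase, then elongated and desaturated. The transcription factors SREBP1 and SREBP2, encoded by SREBF1 and SREBF2, activate these genes. SCAP escorts them out of the endoplasmic reticulum when sterols are scarce, and INSIG1, itself an SREBP target, holds SCAP back when sterols are plentiful. Prostate cancer cells are known for active lipid synthesis, and androgen is known to raise FASN and SREBF1 in LNCaP.

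Promoter sequence was taken from RefSeq for 28 of the 32 genes. ACAT2, FDFT1, SQLE and FASN were the other 4. The windows run from 250 bases before to 50 bases after each annotated start (300 bases, build GRCh38.p14), and 40 windows belonged to these genes. INSIG1 and SREBF1 are shown because they passed the test across the 4 lines, SCD and STARD4 because they had the smallest p-values with siEHMT1, and SREBF2 because it held the letters of a sterol response element. Sequences are 5′ to 3′ on the gene's strand. Capitals mark TCACNCCAC, the letters of a sterol response element, CCAAT and GGGCGG, the letters of NF-Y and Sp1 sites, each searched on both strands, and adjoining matches run together.
INSIG1, chr7:155297628-155297927, plus strand: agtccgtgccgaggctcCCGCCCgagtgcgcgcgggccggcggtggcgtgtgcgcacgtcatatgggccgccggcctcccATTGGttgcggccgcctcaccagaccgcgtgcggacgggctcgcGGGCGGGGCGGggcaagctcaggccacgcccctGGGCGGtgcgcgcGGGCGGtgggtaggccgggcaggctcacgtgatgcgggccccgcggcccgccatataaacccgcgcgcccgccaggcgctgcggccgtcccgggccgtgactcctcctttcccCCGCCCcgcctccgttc
SREBF1, chr17:17836937-17837236, minus strand: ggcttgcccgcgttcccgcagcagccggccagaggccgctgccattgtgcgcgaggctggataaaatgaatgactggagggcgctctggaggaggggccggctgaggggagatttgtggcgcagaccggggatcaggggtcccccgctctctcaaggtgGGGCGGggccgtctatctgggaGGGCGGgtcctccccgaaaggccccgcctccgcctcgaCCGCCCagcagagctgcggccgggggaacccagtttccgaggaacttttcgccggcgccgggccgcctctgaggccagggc
SREBF2, chr22:41832855-41833154, plus strand: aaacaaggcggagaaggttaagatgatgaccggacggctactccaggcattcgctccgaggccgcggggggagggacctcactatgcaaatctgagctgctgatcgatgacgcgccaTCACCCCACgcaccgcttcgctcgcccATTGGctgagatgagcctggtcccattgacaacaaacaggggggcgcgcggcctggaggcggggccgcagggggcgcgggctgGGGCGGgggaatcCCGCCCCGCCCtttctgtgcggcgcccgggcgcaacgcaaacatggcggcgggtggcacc
SCD, chr10:100346983-100347282, plus strand: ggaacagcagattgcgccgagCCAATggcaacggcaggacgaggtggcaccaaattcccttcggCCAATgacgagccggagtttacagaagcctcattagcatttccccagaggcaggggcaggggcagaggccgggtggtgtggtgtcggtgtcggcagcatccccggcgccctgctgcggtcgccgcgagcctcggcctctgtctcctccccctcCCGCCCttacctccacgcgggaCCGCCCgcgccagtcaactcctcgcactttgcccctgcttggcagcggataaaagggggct
STARD4, chr5:111512486-111512785, minus strand: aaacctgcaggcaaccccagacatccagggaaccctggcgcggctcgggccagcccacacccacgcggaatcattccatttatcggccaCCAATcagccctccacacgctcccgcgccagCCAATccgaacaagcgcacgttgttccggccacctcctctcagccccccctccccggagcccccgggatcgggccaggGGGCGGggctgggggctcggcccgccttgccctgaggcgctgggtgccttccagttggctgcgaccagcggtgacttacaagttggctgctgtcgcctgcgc

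TCACNCCAC was present in 1 of the 40 windows (1 of the 28 genes), against 1.13% of all 35116 RefSeq promoter windows. The match was in SREBF2, at 133 bases before the start. CCAAT was present in 25 of the 40 windows (21 of the 28 genes) against 34.6% of all windows. GGGCGG was present in 35 of the 40 windows (27 of the 28 genes) against 45% of all windows. These are matches of letters, and binding was not measured here. The share is per window over all RefSeq windows, not matched for expression, and a gene counts if any of its windows matches. Other forms of SREBP site were not searched, so a window without TCACNCCAC may still hold one.

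EHMT1 followed the labels. In counts scaled to library size with TMM (CPM), the siNTC samples had 87.92 and 82.81 and the siEHMT1 samples 29.24 and 30.67, and across the lines the level went from 71.02–88.37 with Veh to 661.5–840.8 with Dox, which includes the introduced frame. Totals were 5593400 to 12438006 counts per siRNA sample. In the stable lines the 2 columns of each condition differed by no more than counting noise (chi-square per degree of freedom 0.995 to 1.02) and were summed into 1 sample of 8436791 to 12407739 counts. The siRNA samples differed far more within a group, at 61.6 in siNTC and 13.4 in siEHMT1. Without 2 pseudogenes that resemble ribosomal RNA, these values were 6.58 and 6.17. Of these pseudogenes, AC010970.2 took between 0.0311% and 8.39% of the counts of an siRNA sample. Over the 32 genes alone the values were 51.5 in siNTC and 59.4 in siEHMT1, but the genes differed unequally. In siEHMT1, FASN had 10270 and 21430 counts, while SCD had nearly equal levels of 315.7 and 311 CPM. All 9 luminal prostate markers were present in every sample, led by KLK3 at 2910 to 8320 CPM, and KRT5, TP63, COL1A2, PTPRC and ADIPOQ were at 0 in all samples. The luminal markers summed to 5990–6300 CPM in the siRNA samples and 11500–12900 CPM in the lines. The stromal list, VIM and COL1A1 in effect, summed to 27.7–29.9 and 96.8–109 CPM.

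Per kilobase of merged exon, the fatty acid enzymes were the more abundant arm. In siNTC cells, FASN (fatty acid synthase, chr17:80036214-80056170, GRCh37) had the highest level of the 32 genes at 196 reads per kilobase of exon after the scaling to CPM (RPKM), followed by ACLY, which makes cytosolic acetyl-CoA from citrate, at 106 RPKM and the desaturase FADS2 at 105 RPKM. The highest sterol gene was FDFT1 (squalene synthase, chromosome 8), at 61.6 RPKM, and the lowest were HSD17B7 and CYP51A1, enzymes after lanosterol, at 2.34 and 2.54 RPKM. SREBF1 had 56 RPKM and SREBF2 19.6 RPKM. All 32 genes passed the filter on low counts in both experiments, and HSD17B7 and CYP51A1 had the largest standard errors of the log2 fold change with siEHMT1 (0.192 and 0.198).

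With EHMT1 silenced, the fatty acid genes lay slightly below control as a group, and the sterol genes were divided. All 9 fatty acid genes had a negative log2 fold change, between −0.40 and −0.063 with a median of −0.165. Of all 14532 genes tested, 50.4% were negative, around a median of −0.00208. All 9 were measured in the same 4 samples, so they are not 9 independent results. With any 1 of the 4 samples left out, 8 of the 9 were negative (ACACA turned positive without siNTC sample 1 or siEHMT1 sample 1, ELOVL6 without siNTC sample 2 and ACSS2 without siEHMT1 sample 2), and the median lay between −0.254, without siEHMT1 sample 2, and −0.149. FASN and SCD had an unadjusted p under 0.05 (edgeR quasi-likelihood test), which 5.09% of all genes reached in that direction. No gene of either arm passed at an adjusted p under 0.05, which 0.131% of all genes did, and the smallest adjusted p among the 32 was 0.274. In bulk RNA, fewer cells of a type and less RNA per cell cannot be told apart.

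SCD, the stearoyl-CoA desaturase that makes monounsaturated fatty acids (chr10:102106990-102124583, GRCh37), had 375.9 and 375.3 CPM in siNTC and 315.7 and 311.0 CPM in siEHMT1. The groups were separate and the samples within each nearly equal. The log2 fold change was −0.27 ± 0.0853 (SE derived from the test's F statistic, n = 2 per group, adjusted p = 0.274 by edgeR's quasi-likelihood test). The unadjusted p stayed under 0.05 in every setting that kept all samples. With 1 sample left out, the log2 fold change of SCD lay between −0.277 and −0.254. FASN had 2020 and 1635 CPM in siNTC and 1072 and 1707 CPM in siEHMT1. One siEHMT1 sample was low and the other lay between the controls, so the groups overlapped. Its log2 fold change of −0.40 ± 0.153 (adjusted p = 0.409) became −0.10 (adjusted p = 0.867) without siEHMT1 sample 1, −0.77 (adjusted p = 0.00092) without siEHMT1 sample 2, and −0.54 (adjusted p = 0.00392) without siNTC sample 2. DESeq2 gave FASN an adjusted p of 0.994.

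Among the other fatty acid genes, ACLY and the desaturases FADS1 and FADS2 also had both siEHMT1 samples below both siNTC samples. That makes 4 of 9 with SCD, where 19.2% of all genes tested were separated in this direction, and none of the 9 was separated upward (20.1% of all genes). FADS2 had 1136 and 1083 CPM against 997.5 and 964.2 CPM, and ACLY 571.6 and 534.8 CPM against 458.3 and 531.3 CPM. FADS1 and FADS2 overlap on opposite strands, and the use of strand in counting is not given in the sources used here, so part of their reads cannot be told apart. ACACA, the acetyl-CoA carboxylase that commits carbon to fatty acids, had the smallest change of the arm (−0.063 ± 0.123), with 313.8 and 450.9 CPM in siEHMT1 on either side of its controls (424.5 and 372.6 CPM). ACSS2, the elongase ELOVL6 and the phosphatidate phosphatase LPIN1 also overlapped between groups, with log2 fold changes of −0.071, −0.16 and −0.18.

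**Figure D1:**
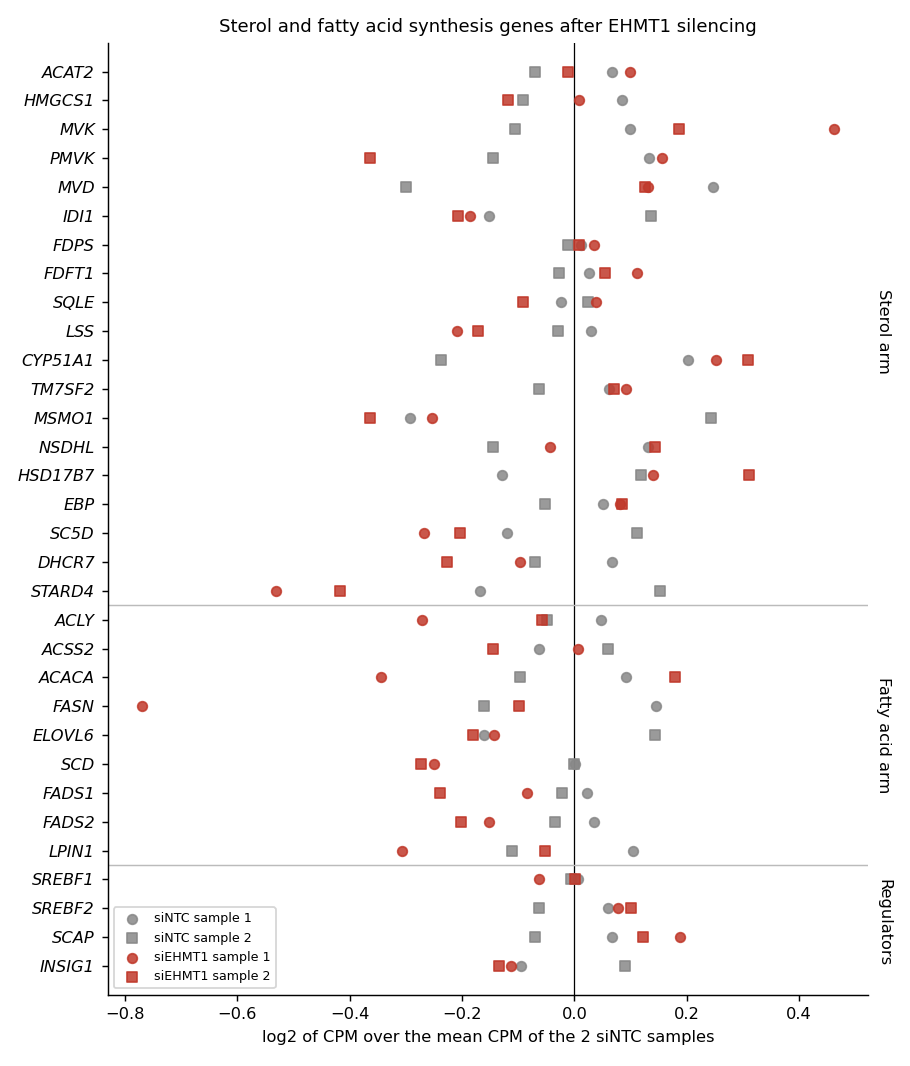
Level of each of the 32 genes in the 2 siNTC (grey) and 2 siEHMT1 (red) samples, as the log2 of its CPM over the mean CPM of the siNTC samples. Both SCD points of siEHMT1 sit together left of the controls, FASN has 1 siEHMT1 point at far left and 1 among the controls, and the sterol genes fall on both sides of 0.

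Of the 19 sterol genes, 9 had a negative and 10 a positive log2 fold change, with a median of 0.018, which ran from −0.0189 to 0.041 with 1 sample left out. STARD4 and MSMO1 were lower and MVK higher at an unadjusted p under 0.05, to be read against 5.09% lower and 4.46% higher of all genes. STARD4, a carrier of cholesterol between membranes (chr5:110831731-110848288, GRCh37), had 22.43 and 28 CPM in siNTC and 17.44 and 18.88 CPM in siEHMT1. Its groups did not overlap, with a log2 fold change of −0.47 ± 0.156 (adjusted p = 0.297), which came to −0.30 (adjusted p = 0.994) without siNTC sample 2.

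MVK, mevalonate kinase, was the 1 sterol gene that was higher at an unadjusted p under 0.05. It had 31.33 and 27.21 CPM in siNTC and 40.31 and 33.3 CPM in siEHMT1 (0.32 ± 0.134, adjusted p = 0.441 by edgeR's test). Its log2 fold change came to 0.18 without siEHMT1 sample 1 and 0.23 without siNTC sample 2. The unadjusted p of MVK rose above 0.05 with DESeq2 (0.0919) and with limma-voom (0.0541). Its exons overlap those of MMAB on the opposite strand. MSMO1, which oxidizes the C4 methyl groups of lanosterol products, had 38.52 and 55.79 CPM in siNTC and 39.57 and 36.65 CPM in siEHMT1. Only 1 control stood apart, and the log2 fold change of −0.31 ± 0.144 (adjusted p = 0.519) was −0.013 without it and −0.56 (adjusted p = 0.0485) without the other control. The siEHMT1 samples lay both below the controls for 5 sterol genes (STARD4, IDI1, LSS, SC5D and DHCR7) and both above for 6 (MVK, FDFT1, CYP51A1, TM7SF2, HSD17B7 and EBP). Over all genes, 19.2% and 20.1% were separated in these directions. HMGCS1, which makes the substrate of the mevalonate step, and SQLE, squalene epoxidase, differed by −0.058 ± 0.105 and −0.029 ± 0.107.

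None of the 4 regulators had an unadjusted p under 0.05 with siEHMT1. SREBF1 had 462.9 and 459.1 CPM in siNTC and 441.3 and 461.4 CPM in siEHMT1, a log2 fold change of −0.035 ± 0.0866, with overlapping groups. SREBF2 had 164.5 and 151.1 CPM in siNTC and 166.5 and 169.2 CPM in siEHMT1, and SCAP 170 and 154.5 CPM against 184.8 and 176.6 CPM. Both were separate upward by a small margin (0.085 ± 0.0891 and 0.15 ± 0.0897). INSIG1 had 98.43 and 111.8 CPM in siNTC and 97.21 and 95.77 CPM in siEHMT1, separate downward by little more than 1 CPM (−0.13 ± 0.098).

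Other genes of these pathways, counted as lists, had fold changes of similar size with siEHMT1, and none passed at an adjusted p under 0.05. Their counts at an unadjusted p under 0.05 stand beside 5.09% lower and 4.46% higher of all genes. In the further fatty acid list, 10 of 12 genes were negative (median −0.0723), with the elongase ELOVL5 (−0.21) and the fatty acyl-CoA synthetase ACSL3 (−0.29) lower and the mitochondrial citrate carrier SLC25A1 (0.21) higher at an unadjusted p under 0.05. In the further sterol list 3 of 6 were lower at that p, namely the sterol reductase LBR (−0.31), TMEM97 (−0.21) and the acetoacetyl-CoA synthetase AACS (−0.29). Of 5 genes that handle SREBP, none reached it. Of 9 genes of LXR action and sterol export, NR1H2, the receptor LXRβ, was lower (−0.29) and NPC1, which moves cholesterol out of lysosomes, higher (0.44, adjusted p = 0.155).

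In the stable lines, Dox lowered INSIG1, SREBF1 and FDFT1 when the 4 lines were taken as replicates, and no fatty acid gene passed the test. INSIG1 fell by 0.32 on the log2 scale (SE 0.0685, adjusted p = 0.00861), SREBF1 by 0.20 (SE 0.0522, adjusted p = 0.0347) and FDFT1 by 0.20 (SE 0.0531, adjusted p = 0.0373), by the edgeR test with line as a term and 3 residual degrees of freedom. These 3 of 32 stand beside 1.51% of all 14105 genes tested that fell at an adjusted p under 0.05, and none of the 32 rose (0.603% of all genes). The test shares variance across genes, and the INSIG1 log2 ratio ran from 0.01 in WT to −0.57 in K450RK451R. Each of the 3 calls was lost in some settings. Without the K451R line none of the 32 passed, without K450R only INSIG1 and without K450RK451R only SREBF1. INSIG1 had an adjusted p of 0.323 with DESeq2, and SREBF1 and FDFT1 had 0.0589 and 0.0613 with upper-quartile scaling.

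INSIG1 (chr7:155089486-155101945, GRCh37), whose promoter window is shown above, had 441.4 CPM with Veh and 445.2 CPM with Dox in the WT line. In the K450R, K451R and K450RK451R lines it had 397.6, 381.6 and 345.4 CPM with Veh, and 341.5, 271.3 and 232.7 CPM with Dox, in that order. It was thus level in WT and lower with Dox in the 3 mutant lines. The WT log2 ratio was 0.01, with a 95% counting interval of −0.0477 to 0.0723. The K450R ratio was −0.22 (−0.291 to −0.149), that of K451R −0.49 (−0.563 to −0.422) and that of the dual mutant −0.57 (−0.641 to −0.499). These intervals cover counting error only, since each line had 1 summed sample per condition.

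SREBF1 (chr17:17713713-17740316, GRCh37), which encodes SREBP1, was lower with Dox in all 4 lines. With Veh the WT, K450R, K451R and K450RK451R lines had 941.8, 912.1, 716.4 and 639.1 CPM, and with Dox 845.2, 774.2, 581.9 and 598.6 CPM. The log2 ratios lay between −0.30 in K451R and −0.09 in K450RK451R, and the Veh levels of the lines differed by more than Dox changed any of them. Some SREBF1 exons overlap those of RAI1 on the opposite strand.

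FDFT1, which joins farnesyl pyrophosphate into squalene, had 478.3, 415.4, 398.9 and 355.6 CPM with Veh in the same line order, and 421.5, 368.4, 321 and 326.5 CPM with Dox. Its log2 ratios were −0.18, −0.17, −0.31 and −0.12 in that order, all below 0 with their counting intervals. As for SREBF1, the change was most negative in K451R and least in K450RK451R.

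The other 2 regulators did not pass the test. In the line order used above, SREBF2 had 163.2, 163.3, 156.9 and 182 CPM with Veh and 160.7, 159.8, 150.4 and 171.8 CPM with Dox (log2 fold change −0.056 ± 0.0562, adjusted p = 0.707). SCAP had 126.3, 120.6, 124.4 and 130.6 CPM with Veh and 116, 121.7, 126.5 and 128.8 CPM with Dox (−0.033 ± 0.0593, adjusted p = 0.857). SREBF2 was lower in each line by a small margin, and SCAP lay on both sides of no change.

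**Figure D2:**
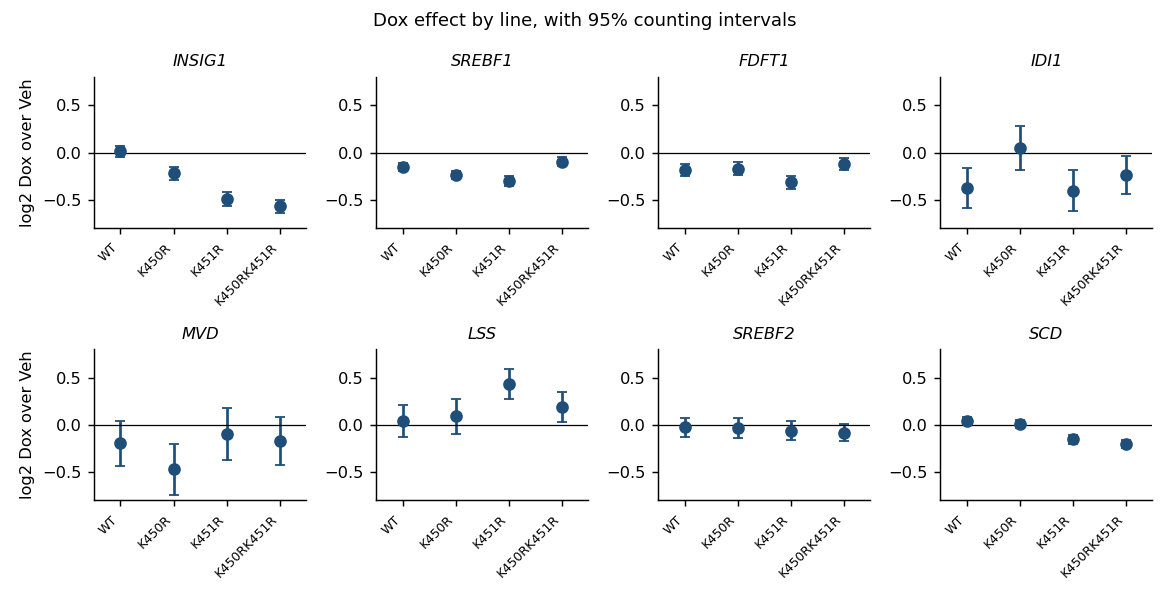
Log2 of Dox over Veh for 8 genes in each of the 4 lines, with bars for the 95% counting intervals (1 summed sample per condition). INSIG1 is at 0.01 in WT and between −0.22 and −0.57 in the mutant lines, whereas SREBF1 and FDFT1 are below 0 in all 4 lines.

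Within the sterol arm, the mevalonate genes MVD and IDI1 were lower and LSS, the lanosterol synthase, higher at an unadjusted p under 0.05 (edgeR quasi-likelihood test), where 7.55% of all genes were lower and 6.86% higher. MVD, which decarboxylates mevalonate pyrophosphate, changed by −0.24 ± 0.0988 (adjusted p = 0.249). IDI1, the isopentenyl diphosphate isomerase, changed by −0.25 ± 0.0897 (adjusted p = 0.159), and LSS by 0.19 ± 0.0754 (adjusted p = 0.221). None of the 3 kept an unadjusted p under 0.05 in every setting: LSS came to 0.11 and IDI1 to −0.19 without K451R, and MVD to −0.16 without K450R. The median over the 19 sterol genes was −0.00618, close to the 0.00498 of all genes. The 9 fatty acid genes lay between −0.081 and 0.083 with a median of −0.00151 and a smallest adjusted p of 0.468. SCD changed by −0.081 ± 0.0538, FASN by 0.029 ± 0.0525 and FADS2 by 0.083 ± 0.0496.

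By sign alone, 6 of the 32 genes were lower with Dox in all 4 lines (MVD, FDFT1, ACSS2, ACACA, SREBF1 and SREBF2) and 3 were higher in all 4 (SQLE, LSS and FADS2). Over all genes, 9.72% were lower and 11.2% higher in all 4 lines. INSIG1 was not among the 6, with its WT ratio at 0.01.

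**Figure D3:**
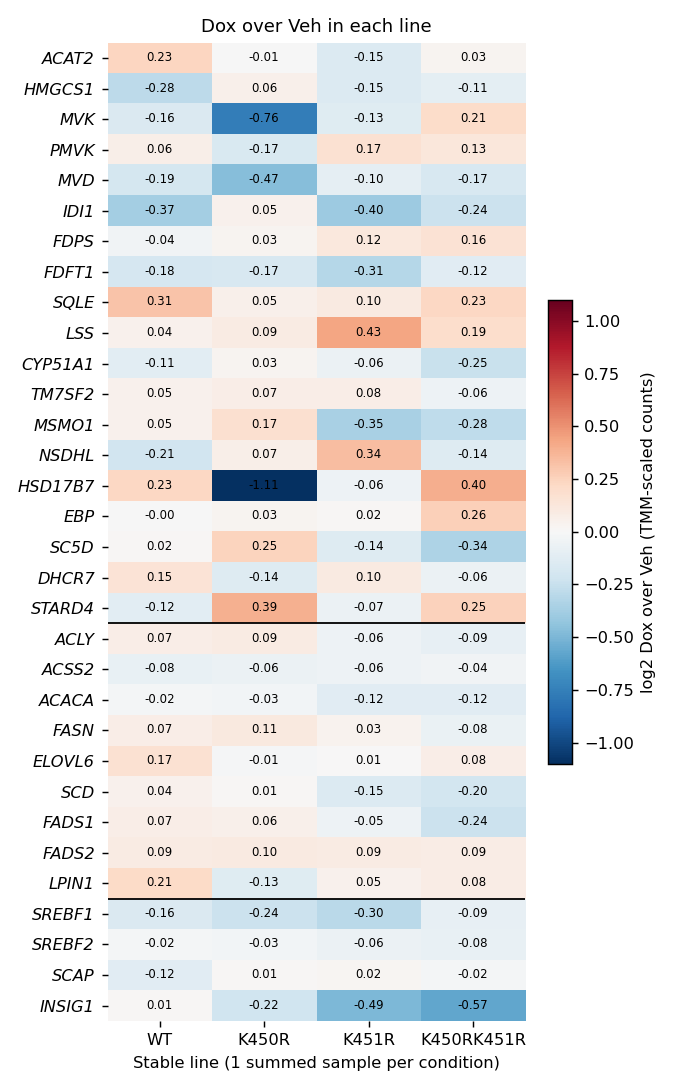
Log2 of Dox over Veh for each of the 32 genes (rows) in each line (columns), from blue for lower to red for higher. The fatty acid block stays pale, with values between −0.24 and 0.21, while the sterol block holds single darker cells such as HSD17B7 at −1.11 and MVK at −0.76 in K450R.

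Line by line, log2 ratios larger than 0.32 in size were found for sterol genes and INSIG1, and for no fatty acid gene in any of the 4 lines. Most fatty acid genes had more counts than most sterol genes, and low counts widen a ratio by counting noise. FASN had 25190 to 40008 counts per condition and HSD17B7 55 to 119. The part of this in the difference between the arms was not tested. In WT 1 gene was past this limit, IDI1, which went from 41.83 to 32.36 CPM (log2 ratio −0.37, counting interval −0.585 to −0.158), with 14.3% of all genes past it downward and 11.8% upward (6.62% and 4.67% of the 9145 genes that averaged 100 counts or more). In K450R, MVK (−0.76), MVD (−0.47) and HSD17B7 were below and STARD4 (0.39) above, where 13.4% and 16.4% of all genes were past (6.66% and 8.72% of those with at least 100 counts). HSD17B7, a 3-keto-sterol reductase, had the most negative ratio of the 32 genes in any line, −1.11 (−1.61 to −0.621), on 103 and 55 counts. Across WT, K450R, K451R and K450RK451R it had 9.23, 12.62, 10.11 and 6.961 CPM with Veh and 10.82, 5.858, 9.704 and 9.203 CPM with Dox, and the annotation lists the pseudogenes HSD17B7P1 and HSD17B7P2.

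In K451R, IDI1 (−0.40), MSMO1 (−0.35) and INSIG1 (−0.49) were below and LSS (0.43) and NSDHL (0.34) above, beside 12.5% and 16.6% of all genes (6.6% and 9.14% at 100 counts). In K450RK451R, SC5D (−0.34) and INSIG1 were below and HSD17B7 (0.40) above, beside 13.5% and 18.6% (7.94% and 9.94% at 100 counts). NSDHL in K451R and HSD17B7 in K450RK451R had counting intervals that reached below 0. IDI1, past the limit in WT and K451R (39.24 CPM with Veh and 29.68 with Dox in the latter), was at −0.24 in the dual mutant (37.63 and 31.94 CPM) and at 0.05 in K450R (35.29 and 36.53 CPM). At 2-fold, the 1 gene left in any line was HSD17B7 in K450R. Across WT, K450R, K451R and K450RK451R, the fatty acid genes had median log2 ratios of 0.0706, 0.0116, −0.0529 and −0.0751. The sterol genes had −0.00354, 0.0333, −0.0621 and −0.0558, and no median of all genes was beyond 0.0179.

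When the Dox effect of the 3 mutant lines was compared with that of WT, INSIG1 had the smallest p-value of the 32 genes. Its Dox effect was more negative in the mutants by 0.45 on the log2 scale (difference −0.45 ± 0.12), seen in 3 of 3 mutant lines. It did not pass over all genes (adjusted p = 0.172), where 0.163% of genes did, and it was the 1 gene of the 32 with an unadjusted p under 0.05 (3.47% of all genes in this direction and 3.62% in the other). The adjusted p was 0.0458 with limma-voom and 0.000132 without the K450R line, but 0.211 without K451R, 0.268 without K450RK451R, 0.103 with DESeq2 and 0.638 with no filter on low counts. WT contributed 1 pair of samples and was assumed to vary like the mutants.

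No sterol or fatty acid gene reached an unadjusted p under 0.05 in this comparison. For 8 of 9 fatty acid genes the difference was negative, with a median of −0.102 beside −0.0017 for all genes (50.3% negative), and all 9 rest on the same WT pair. SCD had the smallest p of the arm (−0.17 ± 0.104, adjusted p = 0.782). It had 877.8 CPM with Veh and 905 with Dox in WT, and 908.3 and 915.7 CPM in K450R, but 794.4 and 715 CPM in K451R and 826.2 and 718.9 CPM in the dual mutant. SREBF1 and FDFT1 had differences of −0.068 ± 0.104 and −0.035 ± 0.112.

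Among the further pathway genes, Dox lowered ELOVL1, an elongase of saturated acyl chains (−0.25 ± 0.0597, adjusted p = 0.0183), and raised ACSL3 (0.22 ± 0.0573, adjusted p = 0.0409) across the 4 lines by edgeR's test. These were the 2 of 12 further fatty acid genes that passed, beside 1.51% of all genes that fell and 0.603% that rose. No gene of the SREBP handling, further sterol or LXR and export lists passed. Values by line and in other settings are not given here for ELOVL1 and ACSL3. The next smallest adjusted p-values were 0.0922 for INSIG2 (−0.31 ± 0.097), the relative of INSIG1, and 0.0998 for TMEM97 (0.22 ± 0.0681).

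Finally, the control cells of the 2 experiments were set side by side, as values with no test, because experiment, medium, transfection and transduction cannot be told apart between them. Levels were scaled over all 6 control samples together, so they differ slightly from those above. INSIG1 was 3.99-fold higher in the uninduced lines, at 347.5 to 440.3 CPM against 91.91 and 104.5 CPM in siNTC. ACLY was 2.7-fold higher (1341 to 1447 against 533.8 and 500.1 CPM), SCD 2.44-fold (802.8 to 914.9 against 351 and 350.9 CPM) and SREBF1 1.87-fold (643 to 939.5 against 432.3 and 429.2 CPM). FASN was 1.84-fold higher, with ranges that did not overlap (3000 to 3266 against 1886 and 1529 CPM).

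The arms went different ways. All 4 lines were above both siNTC samples for 6 of 9 fatty acid genes and 1 of 19 sterol genes (FDFT1, 1.42-fold), and below both for 2 fatty acid genes and 11 sterol genes, where 34% of all genes were above and 34.6% below. The 2 fatty acid genes on the low side were ELOVL6, 3.07-fold lower in the lines (12.99 to 16.67 against 41.89 and 51.8 CPM), and LPIN1, 1.97-fold lower. SQLE was 2.02-fold lower (25.07 to 27.13 against 52.67 and 54.54 CPM), ACAT2 1.93-fold lower and HMGCS1 1.69-fold lower. Exons of ACAT2 overlap those of TCP1 and SOD2 on the opposite strand. By the mean of the 4 lines, 3 of the 32 were at least 2-fold higher and 2 at least 2-fold lower. In these, all 4 lines were also separate from both siNTC samples. Over all genes, the same rule held for 10.7% and 10.4%. Of the regulators, SREBF2 was 1.13-fold higher and SCAP 1.2-fold lower. The luminal and stromal marker sums given above also differed between the experiments, and their part in these differences was not tested.

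**Figure D4:**
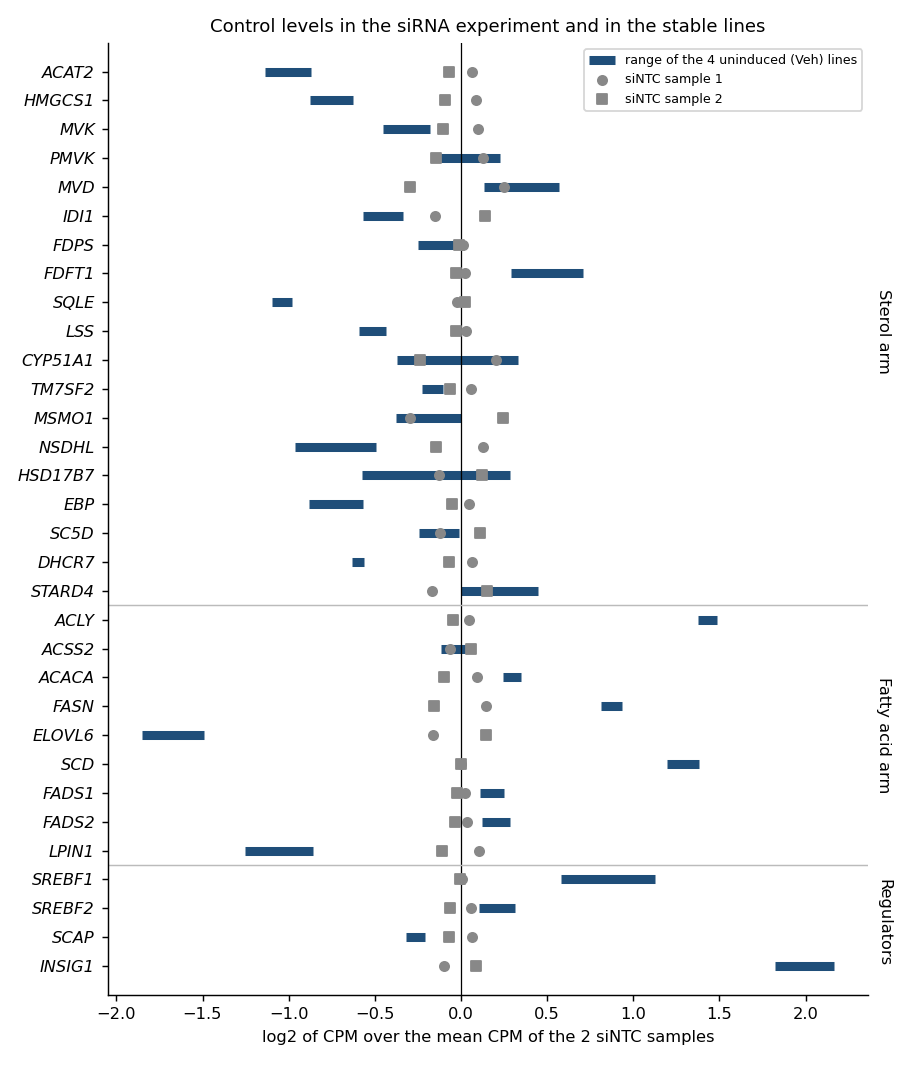
Level of each gene in the 2 siNTC samples (grey) and range over the 4 uninduced lines (blue bars), as the log2 of CPM over the mean of the siNTC samples. INSIG1, ACLY and SCD lie more than 1 unit to the right and ELOVL6 more than 1 to the left, with most sterol genes left of 0.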

How the data were processed

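RNA-seq of LNCaP cells was available for 20 samples, 4 from the siRNA experiment and 16 columns from the stable lines. Per the paper and the labels, total RNA was prepared as stranded libraries and read single-end on a NextSeq 2000. The authors aligned to hg19, counted reads on Ensembl genes and deposited these raw counts, with no normalization. The submitters' processing notes list FastQC 0.11.9, STAR 2.7.2 and featureCounts 1.6.4. The annotation release and the strand setting are not given in the sources used here.

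The 32 genes, the pathway lists, the named genes and the tests were chosen with earlier results of these data known. Named genes were those with an unadjusted p under 0.05 with siEHMT1, an adjusted p under 0.05 across the lines, the 4 regulators and, in each line, the gene with the largest absolute ratio. Counts were TMM-scaled, filtered with edgeR's default and tested with the bias-adjusted quasi-likelihood method of edgeR 4.0.16 in R 4.3.3, over 14532 genes (siRNA) or 14105 (lines), with Benjamini-Hochberg adjustment over all of them. Nothing states that the siRNA samples are separate cultures, so the spread behind their p-values may be technical. The method draws the variance of each gene toward that of other genes, so a p-value does not measure that gene's own spread alone. Each SE (±) is the absolute log2 fold change over the square root of the test's F statistic, and so shares this moderated variance. Paired columns of the lines were summed, the line was a term in the Dox model, and the mutant-WT difference was an interaction with 2 residual degrees of freedom. Ratios within a line have exact conditional binomial intervals and no test. Gene positions came from the GENCODE annotation on GRCh37, matched by identifier for 31 genes and by symbol for ACACA. Levels per kilobase used merged exon lengths.

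On simulated counts with 200 genes changed by 1 log2 unit, the tests recovered 98% over 14308 genes (siRNA), 99.5% over 13942 genes (Dox) and 78% over 13946 genes (interaction). In the same order, 10, 15 and 4 unchanged genes were called. The real log2 fold changes of the sterol, fatty acid and regulator genes were smaller. They lay between −0.469 and 0.322 (siRNA), −0.322 and 0.188 (Dox) and −0.457 and 0.288 (interaction). The percentages hold only for the simulated spread and size of change, and recovery of smaller changes was not tested. Alternatives were limma 3.58.1 (voom), DESeq2 1.42.0, upper-quartile scaling, the legacy quasi-likelihood method, other filters on low counts, no term for the line, the columns as samples, a replicate block and leaving out samples or lines. Corrections for GC content and length were added after the data were examined.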

Additional observations from a re-analysis of the deposited data

How the results depend on the processing

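All 32 genes were called or not on 2 samples a group (siRNA) or 4 line pairs (Dox), which limits every count here. With EHMT1 silenced, 3 sterol genes had an unadjusted p under 0.05, against 1 with DESeq2, 1 with limma-voom and 0 to 6 without 1 sample. For the fatty acid genes that count was 2, against 5 with the GC correction and 2 to 5 without 1 sample, and 0 to 1 of the 32 passed at an adjusted p under 0.05 without 1 sample. The sterol median of 0.018 was −0.0108 with the length correction, and the 9 negative fatty acid genes were 8 without any 1 sample. The pairing of replicate numbers was not supported by the data (correlation of same-numbered deviations −0.0368 between the siRNA groups and 0.0034 to 0.00971 in the lines), and the replicate block left 0 of the 32 passed at an adjusted p, while over all genes it took the count from 19 to 118.

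Across the lines, 4 sterol genes had an unadjusted p under 0.05 with Dox, against 2 with DESeq2, 2 with no line term and 2 to 5 without 1 line. For the fatty acid genes it was 0, against 1 with limma-voom, 1 with no filter and 0 to 1 without 1 line. The 3 genes that passed at an adjusted p became 1 with upper-quartile scaling, 0 with no line term and 0 to 3 without 1 line. With the 16 columns as samples, 8 genes passed, or 7 with the replicate block. At an unadjusted p under 0.05 there were 3 fatty acid genes with and without the block. Over all 12673 genes tested that way, 2000 passed, or 1900 with the block, and 3744 and 3647 had an unadjusted p under 0.05. The paired columns differ by counting noise only. For the mutant-WT difference, the counts of 0 became 1 (limma-voom, adjusted p), and with the columns and the replicate block 1 sterol gene and 3 fatty acid genes at an unadjusted p and 1 gene at an adjusted p. Without 1 mutant line they were 0 to 1 sterol, 0 to 2 fatty acid and 0 to 1 at an adjusted p.

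Within lines, the median sterol ratio in WT was −0.0763 from column 1 alone. With upper-quartile scaling it was −0.0272 in K450R, where it turned sign, and −0.108 in K450RK451R. The genes past a log2 ratio of 0.32 came to 5 in WT and 8 in K451R from column 1 alone and to 8 in K450RK451R from column 2 alone. At 2-fold they were 0, 1, 0 and 0 in WT, K450R, K451R and K450RK451R. The causes were not tested.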
